A study of Mus musculus with 8 samples.

Results

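Collagen chains and the enzymes that modify, fold, trim and cross-link them were followed in pancreatic stellate cells (PSCs), fibroblast-like cells that reside in the pancreas. Members were chosen by name: every gene whose symbol had the form of a collagen alpha chain, and a list of 17 enzymes and helpers of collagen assembly. Of the 12160 genes in the count table, 49 were members: 10 fibrillar chains, 5 basement membrane chains, 17 other chains and all 17 enzymes and helpers. The rule uses names alone and no measured value.

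The cells were 1 immortalized mouse PSC line embedded in Matrigel, a gel of basement membrane proteins. They grew for 4 days in DMEM with 10% serum and were then kept for 4 days in 1 of 3 media. In the shBrca2-CM group (3 libraries) the medium had been conditioned by organoids of KPC cells, a mouse pancreatic cancer model, that carried a short hairpin RNA against Brca2. In the shControl-CM group (3 libraries) it had been conditioned by the same organoids carrying a non-targeting hairpin, and the control group (2 libraries) received control medium. For that control, the sample titles name DMEM and the treatment labels name medium conditioned by PSCs themselves, so it is called control medium here. By the authors' methods, organoid conditioned medium was collected in DMEM with less serum than the growth medium held. A part of serum in the comparisons with control medium cannot be told apart and was not tested. Each library was 1 culture dome of the same line, and p-values therefore measure the spread between domes.

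Collagens are triple helices of 3 alpha chains. Fibrillar chains such as those of types I, III and V assemble into the fibres of scar tissue and tumor stroma, type IV chains form the network of basement membranes, and type VI chains form beaded filaments around cells. Chains are hydroxylated on proline and lysine and folded with chaperones in the endoplasmic reticulum, their propeptides are trimmed after secretion, and lysyl oxidases then cross-link the fibres. Activated PSCs are known as a main source of the dense collagen matrix of pancreatic tumors.

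The authors deposited reads counted per gene from libraries of mRNA 3′ ends. The 2 control medium libraries were the deepest, with totals of 5476988 and 4623846 counts. The shControl-CM libraries held between 1093609 and 1624392 counts, and the shBrca2-CM libraries between 655996 and 1095534. Levels are given in CPM, counts per 1000000 counts of a library after scaling by edgeR's TMM method. A floor of 3 counts equalled 4.35 CPM in the library of lowest depth but 0.525 CPM in that of highest depth, and members of low level were measured less well after conditioned medium than after control medium for that reason. In control medium, members made up 1.10% and 1.18% of all counts. Their share was 0.783% to 0.851% in the shBrca2-CM libraries and 0.752% to 0.855% in the shControl-CM libraries. In bulk RNA, fewer cells of a type and less RNA per cell cannot be told apart. All 10 listed stellate and fibroblast markers were in the table, with summed levels of 5511 and 6078 CPM in control medium, 4868 to 5143 CPM after shControl-CM, and 4446 to 4660 CPM after shBrca2-CM. Within that sum the most abundant marker in control medium, the intermediate filament gene Vim, fell with shControl-CM (log2 fold change −3.38) and shBrca2-CM (−2.68), while the proteoglycan gene Dcn rose (4.50 and 3.56). Of the 10 markers, 4 rose and only Vim fell with shControl-CM (median log2 fold change 0.51), and 6 rose and only Vim fell with shBrca2-CM (median 0.97), while 5 and 3 were not called. The shares called were 50% and 70%, against 37.1% and 37.8% of all genes. Of 10 epithelial markers, 3 were in the table (Krt18, Krt19 and Muc1), summing to 36.8 and 42.0 CPM, 57.1 to 71.0 CPM, and 59.5 to 94.0 CPM in the same order, while Epcam, Cdh1, Krt7 and Krt8 had no row. Those 3 were split, as 2 rose and 1 fell with each conditioned medium. The lowest log2 fold change was −3.18 with shControl-CM and −1.03 with shBrca2-CM. Of 7 immune markers, 3 were in the table, summing to 9.43 and 11.5 CPM, 23.5 to 36.2 CPM, and 13.1 to 26.6 CPM. Of 5 endothelial markers, 3 were in the table, at 17.8 and 25.5 CPM, 44.4 to 62.8 CPM, and 51.5 to 52.2 CPM. The part of these marker levels in the collagen values was not tested.

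For each comparison, the quasi-likelihood test of edgeR was applied to all genes with at least 10 counts in the libraries compared. A gene was called when its Benjamini-Hochberg adjusted p was under 0.1, its absolute log2 fold change was over 0.5 and its mean normalized count was over 5. With shControl-CM against control medium, 26 of the 48 members tested were called, 6 higher and 20 lower. Of all genes tested, 37.1% were called in that comparison, 18.2% higher and 18.9% lower, so 54.2% of members were called against that background, and 41.7% were lower. Values did not overlap between the groups for 34 of the 48 members, where 59.9% of all genes did not overlap. Members sparse after conditioned medium could pass the count filter through the deeper control libraries alone. With libraries thinned to the smallest total, 40 members were tested, 5 called higher and 13 lower. In that fit 2843 of 10203 genes were called, 1463 higher and 1380 lower. With shBrca2-CM against control medium, 23 of 48 members were called, 3 higher and 20 lower, or 47.9% against 37.8% of all genes (18.6% higher and 19.2% lower), and 31 did not overlap, where the share of all genes was 57.5%. After the same thinning 42 members were tested, 3 called higher and 14 lower, and 3304 of 10418 genes were called. Both comparisons use the same 2 control libraries, so their likeness carries no separate weight. Between the 2 conditioned media only 5 of 40 tested members were called, 2 higher and 3 lower with shBrca2-CM, or 12.5% against 3.13% of all genes (1.58% higher and 1.55% lower). Scaling by total counts in place of TMM moved the median of all genes from 0.03 to 0.14 on the log2 scale between the conditioned media, where it changed the split of all calls from 174 higher and 171 lower to 250 higher and 120 lower. It moved that median from −0.10 to −0.21 with shControl-CM against control medium, and the split from 2199 and 2284 to 1800 and 2658.

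Fibrillar chains, the chains of fibre-forming collagens, were lower after both conditioned media than in control medium. The 10 chains summed to 1649 and 1951 CPM in the control libraries, 506 to 801 CPM with shControl-CM and 553 to 713 CPM with shBrca2-CM. Sums in the conditioned media did not reach those of the control libraries, and they overlapped with each other. With shControl-CM, 6 of the 10 chains fell, 1 rose and 3 were not called (70% called, against 37.1% of all genes). With shBrca2-CM 5 of the chains fell and 5 were not called (50% called, against 37.8% of all genes). Their median log2 fold change was −1.46 with shControl-CM and −1.36 with shBrca2-CM, where all genes tested had medians of −0.10 and −0.05. Genes at or under 3 counts in every library of a group have no reliable fold, and with those placed at the fold that the floor allows the fibrillar medians were −0.90 and −0.77.

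**Figure D1:**
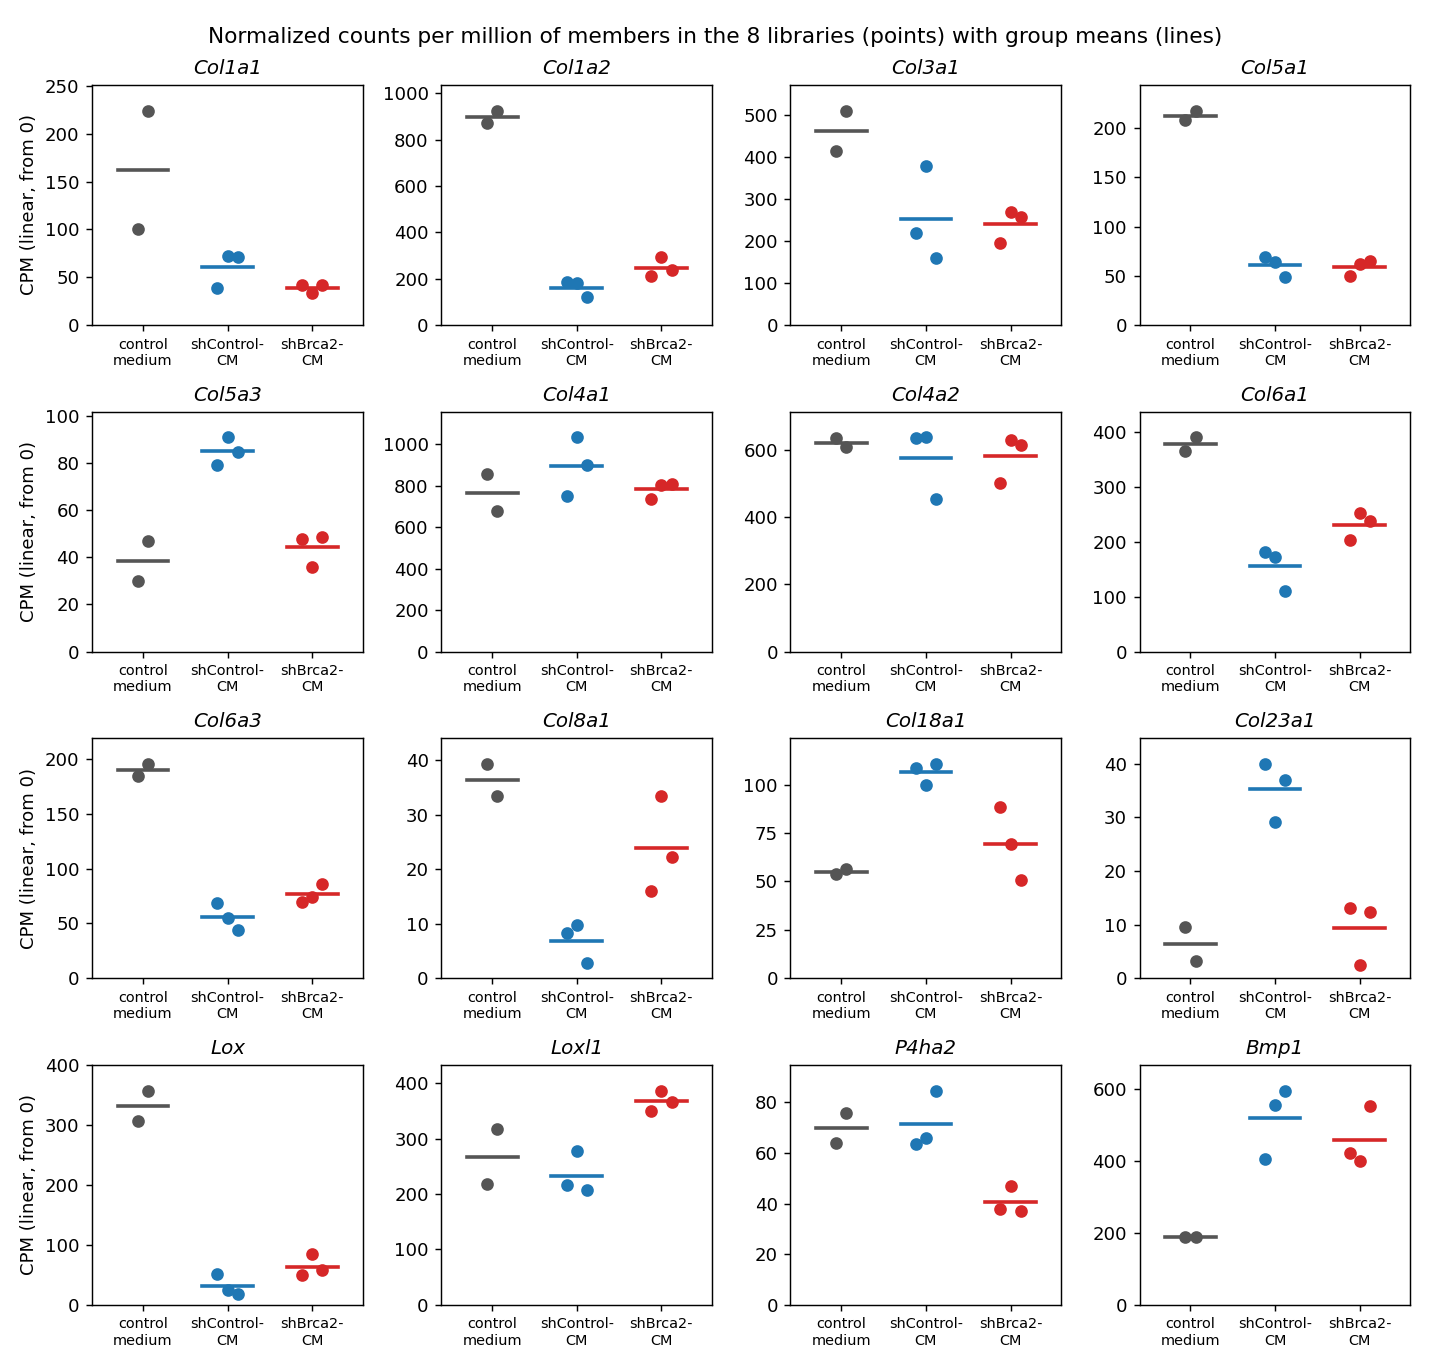
Levels of collagen chains and enzymes in each library, in CPM. The panels have linear axes from 0, points are libraries and lines are group means. Col1a2, Col5a1 and Lox lie higher in both control libraries than in any conditioned medium library, Bmp1 lies lower there, and Col4a1 and Col4a2 overlap among the 3 media.

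Col1a2, the alpha 2 chain of type I collagen, gave 869.9 and 925 CPM in control medium, 183, 181 and 119 CPM with shControl-CM, and 212, 291 and 237 CPM with shBrca2-CM. The 3 groups did not overlap. It fell by 2.48 on the log2 scale with shControl-CM (SE 0.201, adjusted p = 2.54e-05 by edgeR) and fell by 1.86 with shBrca2-CM (SE 0.142, adjusted p = 4.18e-17 by edgeR). Its promoter is shown because Col1a2 had the largest fall with shControl-CM among the fibrillar chains above the floor in every group. The sequence is that of RefSeq on build GRCm38.p6, chr6:4505368-4505667 on the plus strand, from 250 bases before the annotated start to 50 bases from it, with matches in either strand to CCAAT (the NF-Y box) or GGGCGG (the GC box) in capitals.
Col1a2: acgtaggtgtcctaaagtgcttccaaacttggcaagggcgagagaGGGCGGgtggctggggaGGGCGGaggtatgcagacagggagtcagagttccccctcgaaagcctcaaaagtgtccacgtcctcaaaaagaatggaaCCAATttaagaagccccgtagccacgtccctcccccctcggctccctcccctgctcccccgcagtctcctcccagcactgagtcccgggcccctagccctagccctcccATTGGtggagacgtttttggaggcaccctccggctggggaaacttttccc
The window held 2 matches to CCAAT, 1 on each strand, the first beginning 109 bases before the start, and 2 to GGGCGG, the first beginning 205 bases before it. Promoter windows were found for 37 of the 49 members. Of the genes in the count table, 9638 had at least 1 window, and a gene was counted when any of its windows held the motif. CCAAT occurred in 14 of the 37 members (37.8%) and in 43.2% of these genes, and GGGCGG in 28 members (75.7%) and in 69.8% of the genes. TATAAA (the TATA box) was found for 6 members (16.2%) and 8.78% of the genes, and TGANTCA (the AP-1 site) for 1 member and 6.31%.

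Col1a1, the alpha 1 chain of type I collagen, gave 101 and 224 CPM in control medium, 38.7, 71.7 and 71.0 CPM with shControl-CM, and 42.1, 33.5 and 41.7 CPM with shBrca2-CM. The 2 control libraries were above all others but stood far apart from each other. It fell by 1.45 with shControl-CM (SE 0.340, adjusted p = 0.010 by edgeR) and fell by 2.04 with shBrca2-CM (SE 0.218, adjusted p = 1.12e-11 by edgeR). Without the higher control library, replicate 2, the log2 fold changes were −0.75 with shControl-CM (adjusted p = 0.181 by edgeR, not called) and −1.34 with shBrca2-CM (adjusted p = 9.62e-10 by edgeR).

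Col3a1, the chain of type III collagen, gave 414 and 510.3 CPM in control medium, 220.0, 379 and 161 CPM with shControl-CM, and 194, 269 and 256 CPM with shBrca2-CM. No conditioned medium library reached the lower control library. Col3a1 fell by 0.88 with shControl-CM (SE 0.291, adjusted p = 0.0418 by edgeR) and fell by 0.93 with shBrca2-CM (SE 0.146, adjusted p = 4.20e-07 by edgeR). The first call was lost without either control library, at −1.01 (adjusted p = 0.146 by edgeR) without replicate 1 and −0.71 (adjusted p = 0.275 by edgeR) without replicate 2.

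Type V chains nucleate type I fibres, and the 3 of them moved in different directions. Col5a1 gave 208 and 218 CPM in control medium, 69.1, 63.9 and 48.5 CPM with shControl-CM, and 49.3, 62.0 and 64.8 CPM with shBrca2-CM. The conditioned media overlapped each other, and both lay far below control medium. Col5a1 fell by 1.82 with shControl-CM (SE 0.187, adjusted p = 1.14e-04 by edgeR) and fell by 1.83 with shBrca2-CM (SE 0.165, adjusted p = 3.44e-14 by edgeR). Col5a2 was sparse after conditioned medium, with 5, 0 and 2 counts with shControl-CM and 0, 3 and 1 counts with shBrca2-CM against 38 and 36 counts in control medium. It fell with shControl-CM (log2 fold change −2.05, SE 0.614, adjusted p = 0.0283 by edgeR), a call lost without control replicate 1 (−2.16, adjusted p = 0.151) or replicate 2 (−1.95, adjusted p = 0.178), and the value was −3.11 without shControl-CM replicate 1. With shBrca2-CM it was called lower, and control medium held 4.67 times as many scaled counts, with a 95% interval from counting error alone of 1.75 to 17.6. That call was lost at the count threshold without either control library (−2.29 without replicate 1 and −2.06 without replicate 2), and the value without shBrca2-CM replicate 2 was −3.60.

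Col5a3, the third type V chain, was the only fibrillar chain called higher in any comparison by the main edgeR fits. It gave 30.1 and 47.1 CPM in control medium, 79.3, 91.0 and 84.7 CPM with shControl-CM, and 47.9, 36.0 and 48.8 CPM with shBrca2-CM. The shControl-CM libraries stood above all others, and the shBrca2-CM and control libraries overlapped. Col5a3 rose with shControl-CM (log2 fold change 1.13, SE 0.226, adjusted p = 0.0044 by edgeR), and with shBrca2-CM its value was 0.22 (SE 0.213, adjusted p = 0.446 by edgeR), or 0.58 and called without control replicate 2 (adjusted p = 0.0444 by edgeR). Its promoter is shown as that of the fibrillar chain that moved against its class, again from RefSeq on GRCm38.p6, chr9:20815018-20815317, read 5′ to 3′ on the minus strand, with matches to CCAAT and to GGGCGG or its complement in capitals.
Col5a3: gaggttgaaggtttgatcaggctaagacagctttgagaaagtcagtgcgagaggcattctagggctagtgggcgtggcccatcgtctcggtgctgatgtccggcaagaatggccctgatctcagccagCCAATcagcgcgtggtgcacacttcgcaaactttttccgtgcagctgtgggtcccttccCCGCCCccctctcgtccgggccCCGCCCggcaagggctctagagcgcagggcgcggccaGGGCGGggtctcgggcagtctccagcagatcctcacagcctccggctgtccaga
Like the Col1a2 window, it held a CCAAT match, beginning 122 bases before the start, and it held 3 matches to GGGCGG, all within 63 bases before the start or across it.

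Col11a1, a chain of type XI collagen, was near the floor, with 27 and 29 counts in control medium, 2, 2 and 0 with shControl-CM and 0, 4 and 4 with shBrca2-CM. It was called lower with shControl-CM, where control medium held 5.49 times as many scaled counts (95% interval from counting error 2.03 to 20.9). The call was lost without control replicate 1 (−2.57, adjusted p = 0.119 by edgeR) or replicate 2 (−2.19, adjusted p = 0.165), and the value without shControl-CM replicate 3 was −1.79. Col2a1, Col11a2 and Col27a1 were not called in any comparison, and their mean levels stayed under 8 CPM in every group.

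Beaded filament chains, those of type VI collagen, were lower after both conditioned media. Their sums were 1017 and 1068 CPM in control medium, 302 to 414 CPM with shControl-CM and 508 to 537 CPM with shBrca2-CM, and the 3 groups did not overlap. With shControl-CM 4 of 4 chains fell, and with shBrca2-CM 3 of 4 fell, where 18.9% and 19.2% of all genes fell. Col6a1 gave 365 and 389.9 CPM in control medium, 182, 172 and 110.0 CPM with shControl-CM, and 203, 252 and 238 CPM with shBrca2-CM, without overlap among the media. It fell by 1.29 with shControl-CM (SE 0.212, adjusted p = 0.00164 by edgeR) and fell by 0.70 with shBrca2-CM (SE 0.142, adjusted p = 5.62e-05 by edgeR). Col6a2 gave 462 and 475 CPM in control medium, 163, 177 and 148 CPM with shControl-CM, and 235, 208 and 185 CPM with shBrca2-CM. Col6a3 gave 185 and 196 CPM, 68.5, 55.2 and 43.7 CPM, and 69.7, 74.4 and 86.1 CPM in the same order. In both chains the shBrca2-CM libraries lay between the other groups. Col6a2 fell by 1.53 with shControl-CM and fell by 1.16 with shBrca2-CM, and the log2 fold changes of Col6a3 were −1.77 and −1.29. Col6a4 held 24 and 32 counts in control medium and 1 count in each shControl-CM library, and was called lower with shControl-CM, with 7.32 times as many scaled counts in control medium (95% interval from counting error 2.38 to 36.6). That call fell under the count threshold without control replicate 1 (−3.11) or replicate 2 (−2.43).

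Chains that associate with fibres or span basement membranes were mixed. Of the 16 chains tested in this class outside the fibrillar and basement membrane groups, type VI included, 7 fell and 2 rose with shControl-CM, and 7 fell and 1 rose with shBrca2-CM. The shares called were 56.2% and 50%, against 37.1% and 37.8% of all genes. The class medians were −1.41 and −0.64 on the log2 scale, and −0.61 and −0.64 with floor genes at their bound. Col15a1, a multiplexin of the basement membrane zone, had the largest ratio between media of the called members at the floor, with 162 and 131 counts in control medium against 3, 1 and 0 with shControl-CM and 2, 2 and 1 with shBrca2-CM. Control medium held 28.7 times as many scaled counts as shControl-CM (95% interval from counting error 11.1 to 106) and 14.8 times as many as shBrca2-CM (6.27 to 45.9). The fitted log2 fold change with shControl-CM was −4.79, and it was −6.01 without shControl-CM replicate 1 and −4.16 without replicate 3.

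Col18a1, the other multiplexin and the source of endostatin, went the other way with shControl-CM. It gave 53.5 and 56.1 CPM in control medium, 108, 99.7 and 111 CPM with shControl-CM, and 88.5, 69.5 and 50.6 CPM with shBrca2-CM. The shControl-CM libraries lay above the rest, and the shBrca2-CM libraries reached down to the control level. It rose with shControl-CM (log2 fold change 0.95, SE 0.168, adjusted p = 0.0024 by edgeR) and had a value of 0.31 with shBrca2-CM (SE 0.187, adjusted p = 0.19 by edgeR). Without shBrca2-CM replicate 3 (0.52, adjusted p = 0.0455 by edgeR) or with the replicate block (0.53, adjusted p = 0.0391 by edgeR) it was called higher with shBrca2-CM too.

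Col23a1, a transmembrane collagen, showed the same order. It gave 9.45 and 3.21 CPM in control medium, 39.9, 29.1 and 36.9 CPM with shControl-CM, and 13.1, 2.48 and 12.4 CPM with shBrca2-CM. No shControl-CM library overlapped with the others. It rose with shControl-CM by 2.45 on the log2 scale (SE 0.409, adjusted p = 0.00176 by edgeR), or 3.45 without control replicate 1, and its value with shBrca2-CM was 0.54 (SE 0.435, adjusted p = 0.338 by edgeR). The latter was called without control replicate 1 (1.54, adjusted p = 0.0118 by edgeR) or shBrca2-CM replicate 2 (0.96, adjusted p = 0.0708 by edgeR).

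Col8a1, a short-chain network collagen, gave 39.4 and 33.4 CPM in control medium, 8.24, 9.68 and 2.73 CPM with shControl-CM, and 16.0, 33.5 and 22.2 CPM with shBrca2-CM. The shControl-CM libraries were lowest, and the highest shBrca2-CM library reached the lower control library. It fell by 2.44 with shControl-CM (SE 0.380, adjusted p = 0.00124 by edgeR). With shBrca2-CM it fell by 0.60 (SE 0.239, adjusted p = 0.0403 by edgeR), a call lost without shBrca2-CM replicate 1 (−0.42, adjusted p = 0.217), shBrca2-CM replicate 3 (−0.52, adjusted p = 0.162) or control replicate 1 (−0.48, adjusted p = 0.166).

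Col12a1, a chain that decorates fibril surfaces, held 55 and 33 counts in control medium, 2, 1 and 4 with shControl-CM and 0, 1 and 3 with shBrca2-CM. It fell with shControl-CM (log2 fold change −2.27, SE 0.510, adjusted p = 0.00819 by edgeR), a call lost without control replicate 1 (−2.01, adjusted p = 0.11). With shBrca2-CM it was called lower, with 5.56 times as many scaled counts in control medium (95% interval from counting error 2.09 to 20.8). The latter call fell under the count threshold without control replicate 1 (−2.17) or replicate 2 (−2.60), and the value was −3.57 without shBrca2-CM replicate 3. Col16a1, another fibril-associated chain, gave 284 and 335 CPM in control medium, 162, 272 and 230.2 CPM with shControl-CM, and 158, 212 and 185 CPM with shBrca2-CM. All conditioned medium libraries lay below both control libraries. It fell with shBrca2-CM by 0.73 (SE 0.148, adjusted p = 4.99e-05 by edgeR) and had a value of −0.49 with shControl-CM (SE 0.207, adjusted p = 0.0918 by edgeR, under the fold threshold). The latter was called with total counts (−0.61, adjusted p = 0.0373), with the replicate block (−0.55, adjusted p = 0.00161) and without shControl-CM replicate 2 (−0.66, adjusted p = 0.0758) or replicate 3 (−0.52, adjusted p = 0.0399), all by edgeR.

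Col7a1, the anchoring fibril chain, gave 7.00 and 12.0 CPM in control medium, 8.24, 15.5 and 17.1 CPM with shControl-CM, and 14.5, 17.4 and 14.2 CPM with shBrca2-CM. Only the shBrca2-CM libraries were all above control medium. It rose with shBrca2-CM by 0.71 (SE 0.331, adjusted p = 0.0826 by edgeR), and this call was kept in only 1 of 5 fits when libraries were left out singly. The values in the other fits were 0.73, 0.62 and 0.78 without shBrca2-CM replicates 1, 2 and 3 and 0.34 without control replicate 1. The remaining chains of the class, Col9a3, Col14a1, Col17a1, Col20a1 and Col28a1, were tested and not called, and Col9a2 had fewer than 10 counts in each comparison.

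Basement membrane chains had like sums in the 3 media. The 5 chains summed to 1322 and 1535 CPM in control medium, 1357 to 1672 CPM with shControl-CM and 1244 to 1445 CPM with shBrca2-CM, and the 3 ranges overlapped. Nearly all counts behind these sums came from Col4a1 and Col4a2, the chains found in almost every basement membrane. Only 1 of the 5, Col4a5, was called, lower with each conditioned medium. This share of 20% was below the 37.1% and 37.8% of all genes called. The class median was −1.93 with shControl-CM and −1.89 with shBrca2-CM because Col4a4 and Col4a6 were near the floor, and with those at their bound it was 0.00 in both. That 0.00 is the bound itself and no estimate. The control means of Col4a4 (1.06 CPM) and Col4a6 (2.21 CPM) lay under the floor of the shallowest library of each conditioned medium.

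Col4a1 gave 854 and 677 CPM in control medium, 751, 1033 and 901 CPM with shControl-CM, and 734, 802 and 810.1 CPM with shBrca2-CM. Col4a2 gave 636 and 609 CPM, 636, 638 and 454 CPM, and 501, 631 and 616 CPM in the same order. The media overlapped for each chain. The log2 fold change of Col4a1 was 0.22 with shControl-CM (SE 0.178, adjusted p = 0.365 by edgeR) and 0.04 with shBrca2-CM (SE 0.135, adjusted p = 0.856 by edgeR). For Col4a2 it was −0.11 (SE 0.182, adjusted p = 0.658 by edgeR) and −0.09 (SE 0.136, adjusted p = 0.647 by edgeR), and a p above the threshold does not show that either chain was level.

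Col4a1 and Col4a2 lie head to head on chromosome 8 with annotated start sites 21 bases apart, and they are read in opposite directions. The segment that both promoter windows share is shown because the results for this class rest on this pair. It is given from RefSeq on GRCm38.p6, chr8:11312777-11312854, on the plus strand, the strand of Col4a2, with the match to GGGCGG in capitals.
Col4a1 and Col4a2: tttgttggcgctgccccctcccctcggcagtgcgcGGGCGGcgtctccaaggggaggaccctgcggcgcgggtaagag
The ratio of Col4a1 to Col4a2 counts was 1.34 and 1.11 in control medium, 1.18, 1.62 and 1.99 with shControl-CM, and 1.47, 1.27 and 1.32 with shBrca2-CM.

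Col4a5, a chain of more specialised basement membranes, gave 41.1 and 32.8 CPM in control medium, 5.71, 0 and 1.37 CPM with shControl-CM, and 8.71, 11.2 and 9.76 CPM with shBrca2-CM. The media did not overlap. It fell by 3.78 with shControl-CM (SE 0.541, adjusted p = 7.45e-04 by edgeR), or −5.47 without shControl-CM replicate 1, which held 9 of the 11 counts of that group. With shBrca2-CM it fell by 1.89 (SE 0.284, adjusted p = 1.52e-07 by edgeR). Its neighbour Col4a6, read away from it on the X chromosome from a start 1343 bases away, held 13 and 10 counts in control medium and at most 1 count in any conditioned medium library, and was not called.

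**Figure D2:**
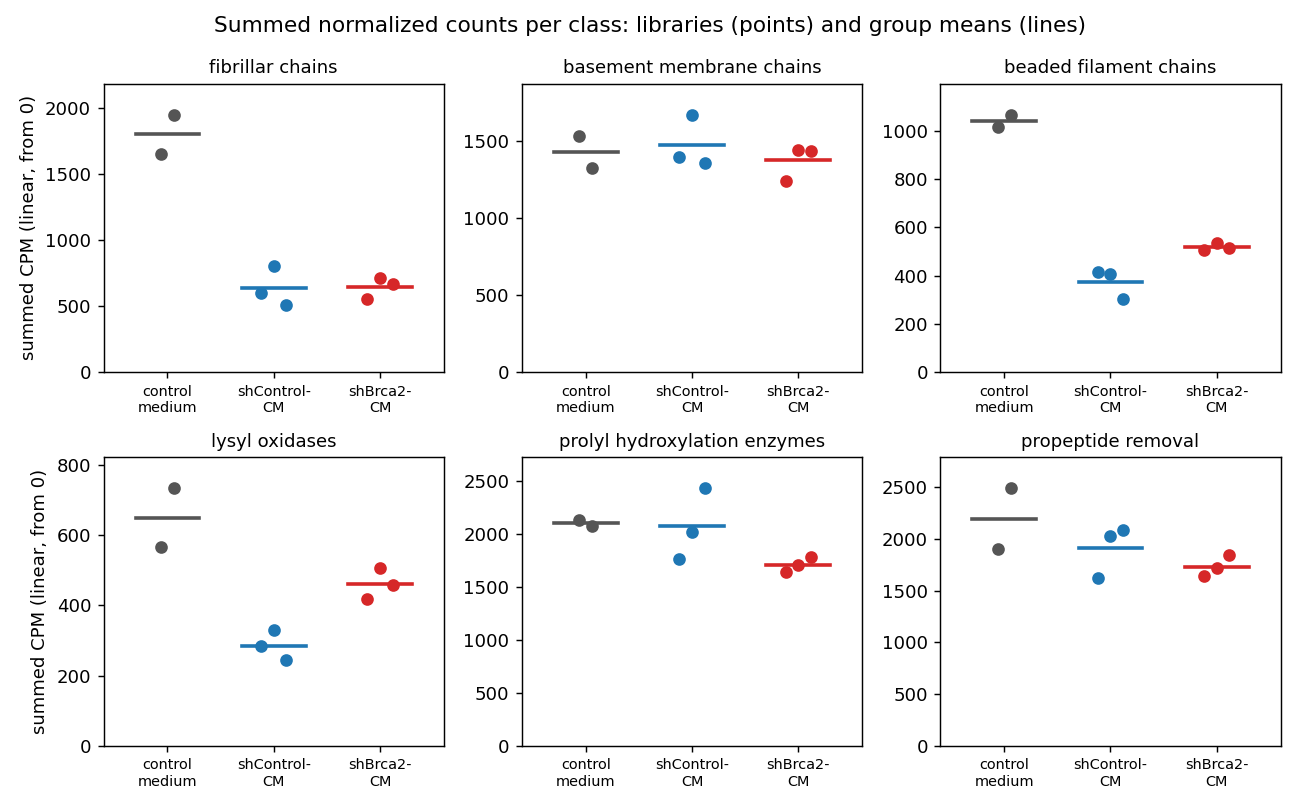
Summed levels per class in CPM (linear axes from 0), with points for libraries and lines for group means. Fibrillar and beaded filament chains and lysyl oxidases are lower with each conditioned medium than in control medium, whereas basement membrane chains overlap among the 3 media.

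The enzymes and helpers were split. Of 17 tested, 6 fell and 3 rose with shControl-CM, and 7 fell and 2 rose with shBrca2-CM. The share called was 52.9% with each medium, against 37.1% and 37.8% of all genes. The median log2 fold changes of the enzymes and helpers were −0.21 and −0.31. Myofibroblast markers are contractile and matrix genes of activated fibroblasts. Of 9 listed symbols 8 were in the table, the other, Ctgf, being the older symbol of Ccn2. They summed to 2570 and 2885 CPM in control medium, 513 to 572 CPM with shControl-CM and 923 to 1067 CPM with shBrca2-CM. Of the 8, 7 (87.5%) fell with each medium, where 18.9% and 19.2% of all genes fell. Whether a change of the cells' activation state has a part in the collagen values was not tested.

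Prolyl hydroxylation stabilises the triple helix. P4ha3, a catalytic subunit of prolyl 4-hydroxylase, held 107 and 68 counts in control medium, 5, 10 and 9 with shControl-CM and 0, 4 and 0 with shBrca2-CM. It fell by 1.47 with shControl-CM (SE 0.396, adjusted p = 0.0182 by edgeR), a call lost without control replicate 1 (−1.25, adjusted p = 0.2) and when libraries were thinned to the smallest total (−0.57, adjusted p = 0.614). With shBrca2-CM it fell by 3.40 (SE 0.553, adjusted p = 8.81e-07 by edgeR), a value set by 4 counts in 1 library: it was −8.68 without shBrca2-CM replicate 2, where the other libraries held 0 counts, and −2.63 without replicate 3. That call was lost with DESeq2's Wald test (−3.35, adjusted p = 0.183) and likelihood ratio test (adjusted p = 0.184), and it fell under the count threshold after thinning (−2.94). P4ha2, a second catalytic subunit, gave 63.9 and 75.6 CPM in control medium, 63.4, 65.9 and 84.7 CPM with shControl-CM, and 37.7, 47.1 and 37.3 CPM with shBrca2-CM. Only the shBrca2-CM libraries stood apart. Its value was 0.03 with shControl-CM (SE 0.192, adjusted p = 0.913 by edgeR), and it fell by 0.78 with shBrca2-CM (SE 0.193, adjusted p = 8.49e-04 by edgeR).

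P4ha1, the remaining catalytic subunit, gave 3.32 and 5.36 CPM in control medium, 7.61, 10.7 and 11.6 CPM with shControl-CM, and 4.35, 9.92 and 7.99 CPM with shBrca2-CM. The shControl-CM libraries were above control medium and the shBrca2-CM libraries overlapped with it. P4ha1 rose with shControl-CM (log2 fold change 1.19, SE 0.398, adjusted p = 0.0435 by edgeR), but the call was lost without shControl-CM replicate 2 (1.14, adjusted p = 0.117), control replicate 1 (0.89, adjusted p = 0.311) or control replicate 2 (1.56, adjusted p = 0.118). P4hb, the shared beta subunit and a protein disulfide isomerase, was not called, with values of −0.03 (SE 0.168) and −0.28 (SE 0.127). P3h1, a prolyl 3-hydroxylase, was not called either. Its partner Crtap gave 50.4 and 69.4 CPM in control medium, 44.4, 36.8 and 32.8 CPM with shControl-CM, and 43.5, 54.6 and 39.0 CPM with shBrca2-CM. It fell with shControl-CM by 0.65 (SE 0.230, adjusted p = 0.0529 by edgeR), a call lost without shControl-CM replicate 2 (−0.63, adjusted p = 0.149) or control replicate 2 (−0.40, adjusted p = 0.394).

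Of the lysyl hydroxylases, whose products anchor sugars and cross-links, Plod1 was called. It gave 121 and 181 CPM in control medium, 232, 255 and 269 CPM with shControl-CM, and 213, 232 and 233 CPM with shBrca2-CM. Both control libraries lay below all others. Plod1 rose by 0.73 with shControl-CM (SE 0.197, adjusted p = 0.0179 by edgeR) and rose by 0.59 with shBrca2-CM (SE 0.155, adjusted p = 0.00154 by edgeR), and without control replicate 1 the values were 0.48 (adjusted p = 0.175) and 0.32 (adjusted p = 0.135). Plod3 had values of 0.39 and 0.35 and Plod2 of −0.17 and −0.31, and neither was called.

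Serpinh1, the collagen chaperone HSP47, gave 849.6 and 1070.0 CPM in control medium, 609.9, 763 and 709 CPM with shControl-CM, and 592, 621 and 647 CPM with shBrca2-CM. All conditioned medium libraries lay below the control libraries. It fell with shBrca2-CM by 0.62 (SE 0.135, adjusted p = 1.36e-04 by edgeR), or −0.43 without control replicate 2, under the fold threshold. With shControl-CM its value was −0.47 (SE 0.166, adjusted p = 0.0518 by edgeR), just under that threshold. It was called lower there with total counts (−0.59, adjusted p = 0.0154), without control replicate 1 (−0.62, adjusted p = 0.0982) and without shControl-CM replicate 2 (−0.55, adjusted p = 0.0956), all by edgeR.

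Bmp1 and Pcolce act together, Bmp1 as the protease that removes the carboxyl propeptide of fibrillar procollagens and Pcolce as its enhancer, and they moved in opposite directions. Bmp1 gave 187 and 188 CPM in control medium, 406, 556 and 596 CPM with shControl-CM, and 422, 399 and 553 CPM with shBrca2-CM. Every conditioned medium library was above both control libraries. It rose by 1.46 with shControl-CM (SE 0.186, adjusted p = 3.81e-04 by edgeR) and rose by 1.30 with shBrca2-CM (SE 0.149, adjusted p = 1.09e-10 by edgeR), and the call held with any 1 library left out. Pcolce gave 1716 and 2300.0 CPM in control medium, 1213, 1472 and 1485 CPM with shControl-CM, and 1216, 1315 and 1290.1 CPM with shBrca2-CM. The conditioned medium libraries were all lower than the control libraries. It fell by 0.54 with shControl-CM (SE 0.175, adjusted p = 0.0392 by edgeR) and fell by 0.65 with shBrca2-CM (SE 0.132, adjusted p = 5.17e-05 by edgeR). The first call was lost without shControl-CM replicate 1 (−0.45, adjusted p = 0.0625), shControl-CM replicate 2 (−0.58, adjusted p = 0.103) or control replicate 2 (−0.30, adjusted p = 0.346), and the second without control replicate 2 (−0.41, adjusted p = 0.0116).

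Lysyl oxidases summed to 565 and 733 CPM in control medium, 243 to 329 CPM with shControl-CM and 418 to 506 CPM with shBrca2-CM, without overlap among the media. With each conditioned medium 3 of the 5 fell (60%), where 18.9% and 19.2% of all genes fell. Lox, the founding member of the family, gave 307 and 357 CPM in control medium, 51.4, 24.2 and 18.4 CPM with shControl-CM, and 49.3, 84.3 and 57.7 CPM with shBrca2-CM. Conditioned media lay well below control medium, and they overlapped through shControl-CM replicate 1. Lox fell by 3.37 with shControl-CM (SE 0.323, adjusted p = 7.37e-05 by edgeR), or −3.99 without shControl-CM replicate 1, and fell by 2.37 with shBrca2-CM (SE 0.169, adjusted p = 2.28e-18 by edgeR).

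Loxl4 held 70 and 65 counts in control medium, 5, 4 and 2 with shControl-CM and 2, 1 and 3 with shBrca2-CM. It fell by 2.25 with shControl-CM (SE 0.429, adjusted p = 0.00351 by edgeR), and with shBrca2-CM it was called lower, with 5.68 times as many scaled counts in control medium (95% interval from counting error 2.54 to 15.8).

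Loxl2, which acts on basement membrane collagen among other substrates, gave 14.3 and 25.5 CPM in control medium, 3.80, 9.68 and 8.88 CPM with shControl-CM, and 11.6, 19.8 and 19.5 CPM with shBrca2-CM. The shControl-CM libraries lay below the rest. It fell with shControl-CM by 1.46 (SE 0.417, adjusted p = 0.0235 by edgeR), but the value was −0.98 without control replicate 2 (adjusted p = 0.265, not called). Loxl3 gave 14.3 and 19.5 CPM in control medium, 10.1, 14.5 and 7.51 CPM with shControl-CM, and 4.35, 13.6 and 10.6 CPM with shBrca2-CM. It fell with shBrca2-CM by 0.76 (SE 0.336, adjusted p = 0.0651 by edgeR), and this call was lost without shBrca2-CM replicate 1 (−0.49, adjusted p = 0.304), shBrca2-CM replicate 3 (−0.84, adjusted p = 0.125) or control replicate 2 (−0.52, adjusted p = 0.286). Loxl1, which acts mainly on elastic fibres, was not called against control medium, with values of −0.21 (SE 0.204) with shControl-CM and 0.47 (SE 0.148) with shBrca2-CM. The latter value was called without control replicate 2 (0.78, adjusted p = 3.91e-05 by edgeR) and after thinning (0.62, adjusted p = 0.00465 by edgeR).

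**Figure D3:**
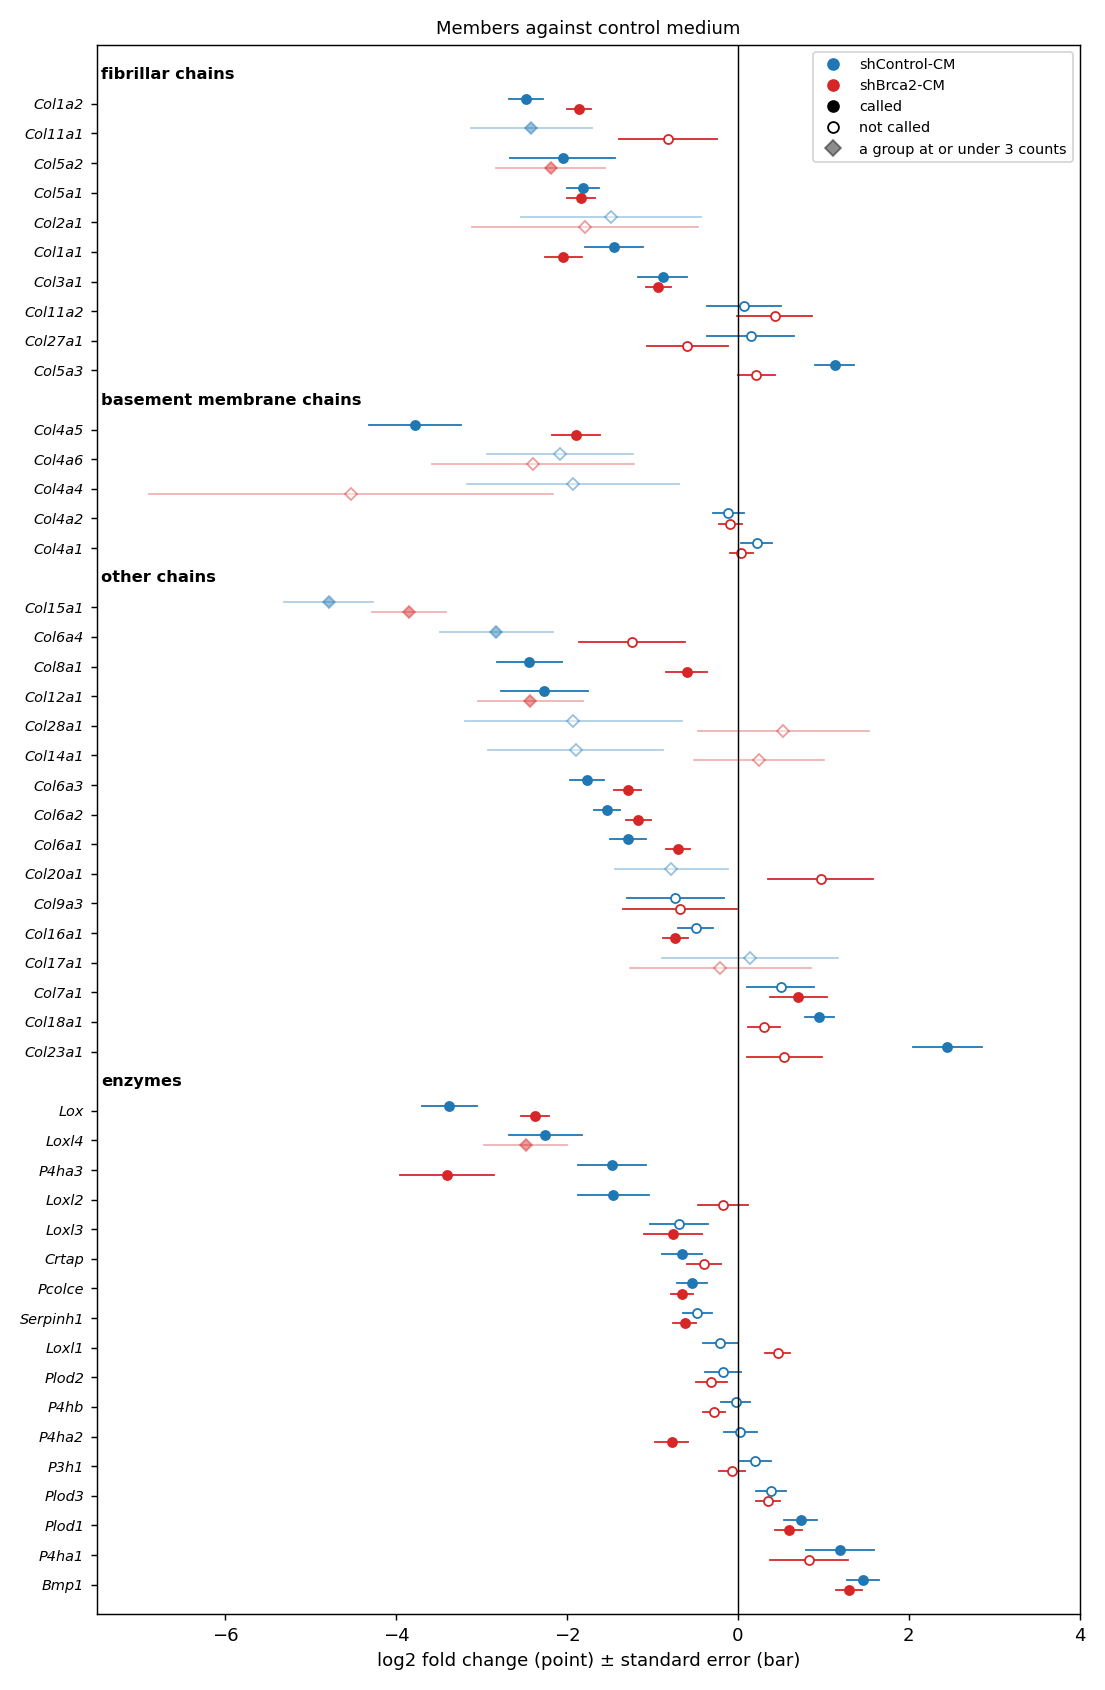
Log2 fold changes of the members against control medium for shControl-CM and shBrca2-CM, with bars of 1 standard error, grouped by class, filled symbols for called members and pale diamonds where a group was at or under 3 counts in every library. Most called fibrillar, type VI and lysyl oxidase genes lie left of 0, Bmp1 and Plod1 lie right of 0 with both media, and Col5a3, Col18a1 and Col23a1 lie right of 0 with shControl-CM.

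Other genes of collagen synthesis, 19 of a list of 23 being in the table, were also split. With shControl-CM 4 rose and 6 fell, among them Pcolce2 (−3.45), another enhancer of propeptide removal, Adamts2 (−1.82), the amino propeptide protease, and Pdia3 (−1.10), a disulfide isomerase. These 10 called genes were 52.6% of the 19, where 37.1% of all genes were called. With shBrca2-CM 1 rose and 6 fell, a share of 36.8% that was near the 37.8% of all genes called, with Pcolce2 (−2.45), Adamts2 (−1.48) and Sec24d (−1.20), a coat protein of secretory vesicles, showing the largest falls on the log2 scale. Of 9 listed symbols of collagen receptor and uptake genes (Gpr56 and Adgrg1 name the same gene) 6 were in the table. With shControl-CM 3 fell: the integrin chains Itga11 and Itga10 (−1.60) and the receptor kinase Ddr2 (−1.24). Itga11 held 128 and 94 counts in control medium, 3, 3 and 2 with shControl-CM and 5, 5 and 9 with shBrca2-CM. With shBrca2-CM Itga11 (−1.55) and Ddr2 (−0.54) fell. The receptor and uptake genes called were 3 of 6 with shControl-CM and 2 of 6 (33.3%) with shBrca2-CM, against the same 37.1% and 37.8% of all genes.

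Between the conditioned media the question was whether silencing Brca2 in the cancer cells changes how their medium acts on collagen genes of PSCs. Called were 1 of 9 fibrillar chains (11.1%, lower), 2 of 11 other chains (18.2%, 1 in each direction) and 2 of 17 enzymes (11.8%, 1 in each direction). Of all genes, 3.13% were called. Each DESeq2 test called 2 of the 9 fibrillar chains, Col1a2 (higher) and Col5a3 (lower). None of the 3 basement membrane chains tested was called by edgeR or DESeq2, and 1 of them had an unadjusted p under 0.05. Class medians were −0.04 for fibrillar chains, 0.04 for basement membrane chains, 0.21 for other chains and −0.13 for enzymes on the log2 scale, where all genes had a median of 0.03. The fibrillar median was positive without shBrca2-CM replicate 1 or shControl-CM replicate 2 (range −0.13 to 0.090 with 1 library left out), and the basement membrane median was negative without shBrca2-CM replicate 2 or shControl-CM replicate 3 (range −0.12 to 0.14). Values of the 2 media did not overlap for 13 of the 40 members tested, against 19.6% of all genes, and 15 members had an unadjusted p under 0.05, against 13.4% of all genes. The other 9 members had fewer than 10 counts over the 6 libraries.

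Col5a3 fell with shBrca2-CM relative to shControl-CM (log2 fold change −0.91, SE 0.182, adjusted p = 0.0216 by edgeR), from 79.3 to 91.0 CPM down to 36.0 to 48.8 CPM. The call was lost without shBrca2-CM replicate 2 (−0.78, adjusted p = 0.149) or shControl-CM replicate 2 (−0.88, adjusted p = 0.109). Col23a1 fell by 1.88 (SE 0.398, adjusted p = 0.0291 by edgeR), from 29.1 to 39.9 CPM down to 2.48 to 13.1 CPM, and the call was lost without shBrca2-CM replicate 3 (−2.20, adjusted p = 0.106). P4ha2 fell by 0.79 (SE 0.197, adjusted p = 0.0688 by edgeR), and this call was kept in 1 of 6 fits when libraries were left out singly. The values in the other fits ran from −0.90 without shBrca2-CM replicate 2 to −0.66 without shControl-CM replicate 3, with adjusted p of 0.153 and 0.107. The call of P4ha2 was also lost with DESeq2 (adjusted p = 0.142 by its likelihood ratio test and 0.149 by its Wald test), with total counts (adjusted p = 0.109) and with the replicate block (adjusted p = 0.1002). For each of the 3 genes the groups did not overlap.

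Col8a1 rose with shBrca2-CM relative to shControl-CM (log2 fold change 1.84, SE 0.447, adjusted p = 0.0623 by edgeR), from 2.73 to 9.68 CPM up to 16.0 to 33.5 CPM. The call was lost without shBrca2-CM replicate 1 (2.04, adjusted p = 0.11), replicate 2 (1.53, adjusted p = 0.339) or replicate 3 (1.91, adjusted p = 0.2), or without shControl-CM replicate 2 (2.10, adjusted p = 0.11). Loxl1 gave 349.7, 387 and 366 CPM with shBrca2-CM and 216, 277 and 207 CPM with shControl-CM, without overlap. Loxl1 rose by 0.69 (SE 0.143, adjusted p = 0.0262 by edgeR), a call lost without shBrca2-CM replicate 1 (0.72, adjusted p = 0.1004), replicate 2 (0.65, adjusted p = 0.18) or replicate 3 (0.70, adjusted p = 0.126). Of 8 myofibroblast markers, 4 rose between the same media, among them Ccn2 (2.28) and Postn (1.37), where 1.58% of all genes rose. Of 10 stellate and fibroblast markers, Pdgfra (0.85) and S100a4 (0.73) rose and Lum (−1.59), Pdpn (−1.07) and Dcn (−0.93) fell, and of 3 epithelial markers Krt19 (2.12) rose. The shares called in these 2 lists were 50% and 33.3%, against 3.13% of all genes. The part of these markers in the values of the 5 called members was not tested.

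The 3 abundant type VI chains all had positive values that were not called, 0.60 for Col6a1 (SE 0.191, adjusted p = 0.164 by edgeR), 0.39 for Col6a2 (SE 0.147, adjusted p = 0.257 by edgeR) and 0.49 for Col6a3 (SE 0.203, adjusted p = 0.317 by edgeR), and for none of them did the media overlap. The type I chains differed in sign. Col1a2 had a value of 0.64 (SE 0.190, adjusted p = 0.132 by edgeR), with no overlap between the media, and Col1a1 a value of −0.59 (SE 0.253, adjusted p = 0.338 by edgeR), with overlap. Col1a2 was called higher by DESeq2 (adjusted p = 0.0979 by its likelihood ratio test and 0.0986 by its Wald test) and in further alternatives given below. The ratio of Col1a2 to Col1a1 counts was 5.03, 8.70 and 5.68 with shBrca2-CM, 4.74, 2.53 and 1.67 with shControl-CM, and 8.65 and 4.13 in control medium. Lox had a value of 1.02 (SE 0.346, adjusted p = 0.199 by edgeR), Loxl2 of 1.26 (SE 0.413, adjusted p = 0.178 by edgeR), Col4a5 of 1.89 (SE 0.687, adjusted p = 0.227 by edgeR) and Col18a1 of −0.62 (SE 0.199, adjusted p = 0.174 by edgeR).

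Between the conditioned media, leaving out shControl-CM replicate 1 changed the number of calls more than leaving out any other library. Without it, 12 members were called, 7 higher and 5 lower, and 974 of all genes in place of 345. The added members were Col1a2 (0.74, adjusted p = 0.032 by edgeR), Col1a1 (−0.85, adjusted p = 0.0222), Col6a1 (0.74, adjusted p = 0.0291), Col6a3 (0.67, adjusted p = 0.0667), Col18a1 (−0.63, adjusted p = 0.0943), Lox (1.61, adjusted p = 0.00322) and Col4a5 (3.46, adjusted p = 0.0136). Without shBrca2-CM replicate 1, 2 or 3 the counts of called members were 2, 1 and 1, and without shControl-CM replicate 2 the count was 2. Without shControl-CM replicate 3 Loxl2 was called (1.46, adjusted p = 0.0922 by edgeR).

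**Figure D4:**
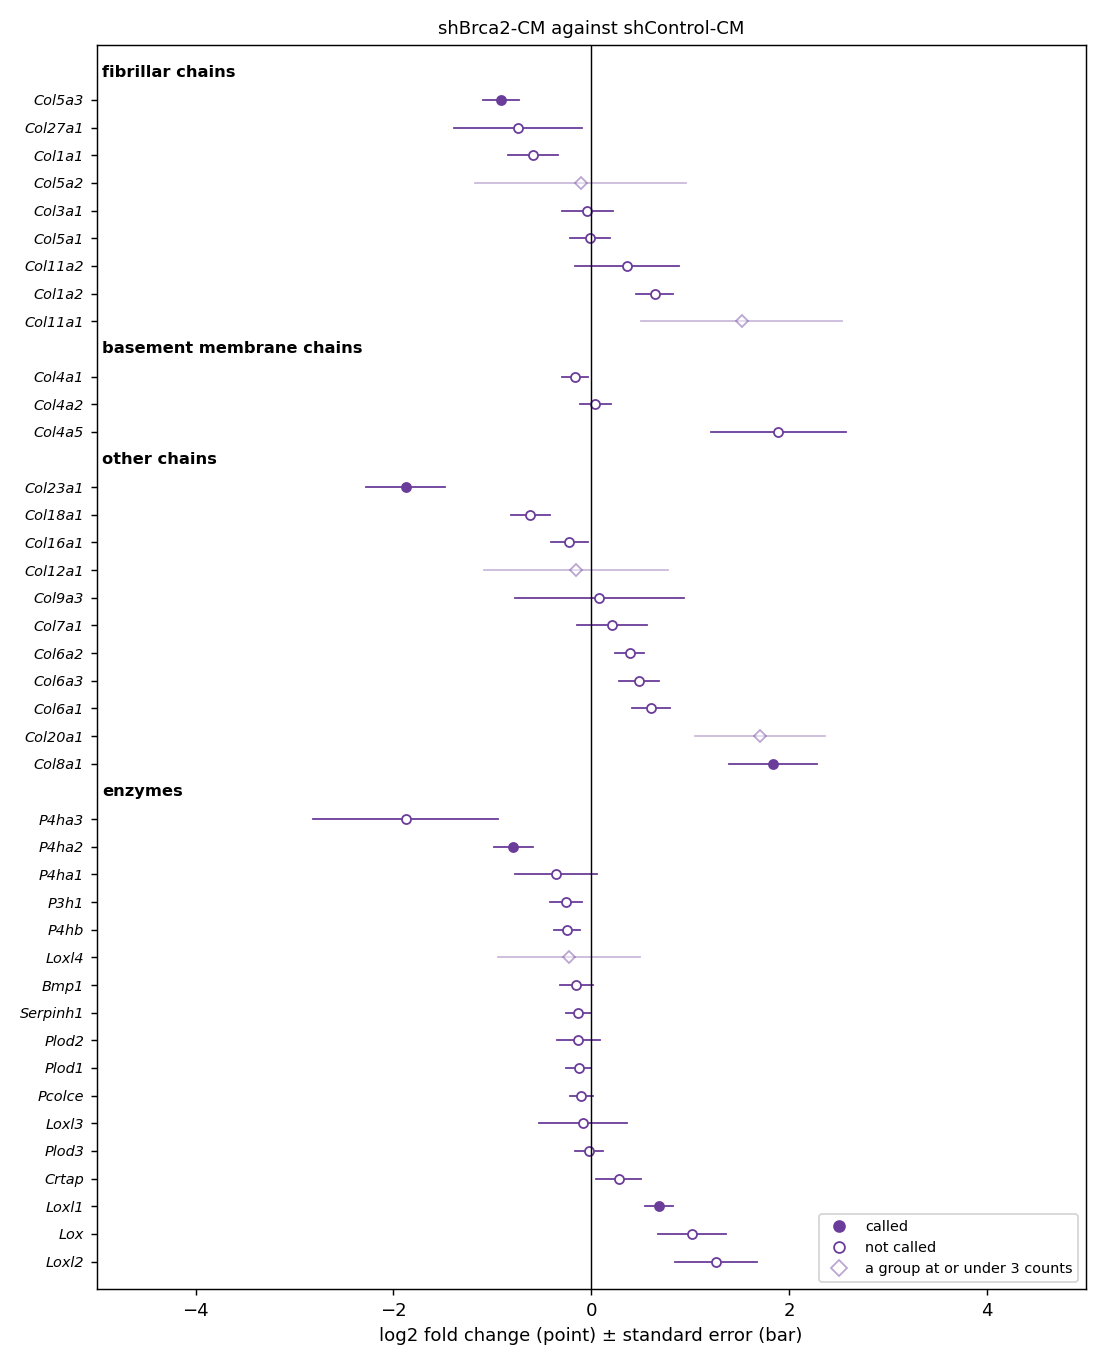
Log2 fold changes of the tested members with shBrca2-CM against shControl-CM, with bars of 1 standard error, filled symbols for called members and pale diamonds where a group was at or under 3 counts in every library. Col5a3, Col23a1 and P4ha2 are called lower and Col8a1 and Loxl1 higher, and Loxl2, Lox and Col4a5 lie right of 0 without being called.

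Among the other collagen synthesis genes only Creb3l1, a membrane-bound factor that acts on collagen genes, was called between the conditioned media, or 5.26% of the 19 against 3.13% of all genes. It gave 59.5, 59.5 and 53.2 CPM with shBrca2-CM and 108, 117 and 107 CPM with shControl-CM, and fell by 0.92 (SE 0.158, adjusted p = 0.00867 by edgeR). None of the 6 receptor and uptake genes was called by edgeR or DESeq2, and 2 of them had an unadjusted p under 0.05.

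Across the 8 libraries the members most like Col1a1 were Serpinh1 (Spearman's rho 0.833), Pcolce (0.810) and Col16a1 (0.786), and of all genes with a mean of at least 10 CPM the closest, with ties ordered by Pearson's r, were D5Ertd579e (rho 1), Flna (0.976) and Wwp2 (0.976). Col1a2 had a rho of 0.262 with Col1a1. These values describe the order of 8 libraries in 3 media, which share group differences and depth.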

How the data were processed

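PSCs were profiled by MARS-seq, a 3′-end RNA-seq protocol, in 8 libraries. The authors deposited raw counts per gene, not normalized. The submitters' processing notes name bcl2fastq, cutadapt, STAR 2.4.2a, HTSeq, DESeq2 and mm10. Whether molecules were counted by unique identifiers is not given in the sources used here, so intervals cover counting error only. Counts at 3′ ends do not compare levels between genes, and 1 per-sample column, headed as a further DMEM library, matched no sample in the labels and was not used, so that control medium has 2 libraries here.

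Genes with at least 10 counts over the libraries of a pair of groups were fitted for that pair alone with edgeR 4.0.16 in R 4.3.3 (quasi-likelihood test, TMM, limma 3.58.1 loaded), with p-values adjusted by Benjamini-Hochberg over all genes tested. Calls required a mean normalized count over 5, an absolute log2 fold change over 0.5 and adjusted p under 0.1. A group with all libraries at or under 3 counts was at the floor, and such members are given by the ratio of scaled counts with an exact 95% interval. Fitted fold changes were tested on simulated data. Depth ranged from 655996 to 5476988 counts per library. No 2 libraries of a group agreed within sampling noise.

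Members, gene lists and tests were chosen with earlier results of these data known. Named with values in every library were members called between the conditioned media and, in each class, up to 3 called members of largest log2 fold change against control medium, and in a class with none its most abundant member. For pathway lists, up to 3 called genes were named. Col1a1, Col3a1, Col5a1, Col4a1, Col4a2, P4hb, P3h1, Plod2 and Plod3 were added after their values were seen wherever this rule did not name them. Alternatives were DESeq2 1.42.0 (likelihood ratio and Wald tests), its size factors, total counts, no filter, filterByExpr, a fit of all 3 groups, a replicate block, stricter thresholds, libraries thinned to the smallest total, and each library left out. Promoter windows of 300 bases came from RefSeq on GRCm38.p6, of which mm10 is the same build.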

Additional observations from a re-analysis of the deposited data

How the results depend on the processing

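Of the calls named by gene, 14 of 26 (shControl-CM against control medium), 15 of 23 (shBrca2-CM against control medium) and 0 of 5 (between the conditioned media) were kept without any 1 library, and over the other alternatives, apart from the stricter thresholds, 215 of 231, 183 of 205 and 41 of 45 combinations of member and alternative kept the call. Under the stricter thresholds 21, 13 and 1 of these calls were kept. Every value of a single member that changed sign belonged to a member not called in that comparison, and among class medians those of fibrillar and basement membrane chains between the conditioned media changed sign. The causes were not tested except where fewer libraries or genes entered the fit. Members sparse in the conditioned media limit the medians of fibrillar and basement membrane chains against control medium and that of other chains with shControl-CM, and with 2 control libraries each control decides much of the spread.

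Between the conditioned media the number of members called was 1 under the stricter thresholds and 1 to 12 with 1 library left out. The median of other chains was 0.33 with total counts, 0.38 without a filter, 0.31 with filterByExpr, 0.41 with all groups in 1 fit, 0.37 after thinning and 0.14 to 0.44 with 1 library left out. The median of basement membrane chains was −0.18 without a filter, −0.19 in 1 fit and −0.12 to 0.14 with 1 library left out. The fibrillar median was 0.074 with total counts, 0.0056 with the replicate block and −0.13 to 0.090 with 1 library left out. With total counts Pcolce was 0.017, Loxl3 0.029, Col3a1 0.074, Col5a1 0.10 and Plod3 0.099, and with filterByExpr Col5a1 was 0.0036. With 1 library left out the ranges were −0.54 to 0.34 for Col5a2, −0.38 to 0.27 for Col12a1, −0.38 to 0.21 for Loxl3, −0.29 to 0.34 for Col3a1, −0.16 to 0.10 for Col5a1, −0.15 to 0.10 for Plod3, −0.57 to 0.037 for Loxl4, −0.12 to 0.14 for Col4a2, −0.088 to 0.43 for Col7a1 and −0.27 to 0.065 for Plod2. Col1a2 was called in 6 alternatives beside those that left out a library: with DESeq2's likelihood ratio (0.62, adjusted p = 0.0979) and Wald tests (adjusted p = 0.0986), with total counts (0.75, adjusted p = 0.083), in 1 fit (0.62, adjusted p = 0.0921), with the replicate block (0.66, adjusted p = 0.099) and after thinning (0.84, adjusted p = 0.0461).

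For shControl-CM against control medium, 17 to 27 members were called with 1 library left out, and 18 after thinning. The fibrillar median was −1.57 with total counts, −1.17 with filterByExpr, −0.99 after thinning and −1.84 to −1.17 with 1 library left out. The median of other chains was −1.52 with total counts, −1.49 without a filter and −1.44 to −1.24 with 1 library left out. The basement membrane median was −0.12 with filterByExpr, −0.10 after thinning and −1.70 to −1.04 with 1 library left out, and that of enzymes −0.44 to −0.16. P4ha2 was −0.087 with total counts and −0.092 after thinning, and P4hb 0.041 after thinning. With 1 library left out, P4hb ranged from −0.16 to 0.080, P4ha2 from −0.10 to 0.16, Col4a2 from −0.20 to 0.042 and Loxl1 from −0.44 to 0.10. Calls lost were those of P4ha1 with DESeq2's Wald and likelihood ratio tests (adjusted p = 0.135 and 0.139) and after thinning (0.62, adjusted p = 0.665), of Crtap with the Wald test (adjusted p = 0.1006) and after thinning (adjusted p = 0.101), of Col11a1 and Col5a2 with the Wald test (adjusted p = 0.11 and 0.103), and of Col5a2 and P4ha3 after thinning (adjusted p = 0.142 and 0.614). Col5a2, Col6a4, Col11a1 and Col12a1 in 1 fit, and Col6a4, Col12a1 and Loxl4 after thinning, fell under the count threshold.

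For shBrca2-CM against control medium, 13 members were called under the stricter thresholds. The fibrillar median was −1.83 with filterByExpr and −1.30 to −1.05 with 1 library left out. The basement membrane median was −0.081 with filterByExpr, −0.016 after thinning and −1.93 to −0.89 with 1 library left out. The median of other chains was −0.75 after thinning and −0.66 to −0.52 with 1 library left out, and that of enzymes −0.55 to −0.27. P3h1 was 0.015 after thinning. With 1 library left out, Col4a2 ranged from −0.14 to 0.0040, Col5a3 from −0.085 to 0.58, Loxl2 from −0.55 to 0.30 and Col4a1 from −0.11 to 0.21. Calls gained with 1 library left out, beside those given with the results, were Crtap without control replicate 1 (−0.62, adjusted p = 0.0116) or shBrca2-CM replicate 2 (−0.54, adjusted p = 0.0539), P4ha1 without control replicate 2 (1.20, adjusted p = 0.0618) or shBrca2-CM replicate 1 (1.04, adjusted p = 0.0988) and Col6a4 without shBrca2-CM replicate 3 (−1.99, adjusted p = 0.085). The calls of Col7a1, Col8a1 and Loxl3 were lost with both DESeq2 tests (adjusted p = 0.269, 0.179 and 0.237 with the Wald test), in 1 fit (adjusted p = 0.178, 0.181 and 0.145) and after thinning (adjusted p = 0.437, 0.103 and 0.284), and that of P4ha3 with both DESeq2 tests (adjusted p = 0.183 and 0.184). Col5a2 and Col12a1 in 1 fit, and Col5a2, Col12a1, Loxl4 and P4ha3 after thinning, fell under the count threshold.

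Replicate numbers are shared by the groups, but same-numbered libraries of the conditioned media had correlations of −0.02, −0.01 and 0.09 in their deviations from the group means. So few libraries cannot show whether same-numbered ones shared a batch, and the labels name none. With the replicate block 5 members were called between the conditioned media, 27 with shControl-CM and 23 with shBrca2-CM against control medium, of which 4, 26 and 21 were called without it. Between the media the block ended the call of P4ha2 and added Col1a2, with shControl-CM it added Col16a1, and with shBrca2-CM it ended those of Col7a1 (0.75, adjusted p = 0.144) and Col8a1 (−0.52, adjusted p = 0.159) and added Col18a1 and Col6a4 (−2.05, adjusted p = 0.0846). With the block Col3a1 was 0.027 and Col5a1 0.0056 between the conditioned media, and against control medium with shControl-CM the medians were −1.21 for fibrillar, −1.34 for basement membrane and −1.27 for other chains, P4ha2 was −0.092 and Col4a2 was 0.041. Not every library correlated best with its own number.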
